A study of Homo sapiens with 4 samples.

Results

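The Eph receptors and ephrins, the semaphorins with their plexin and neuropilin receptors, and the SLIT ligands with their ROBO receptors were examined across 4 arrays of SCP2 breast cancer cells. Members were matched by gene symbol alone, from probe sets that the platform annotation assigns to exactly 1 gene. They were chosen with earlier results of these data known. The choice gave 59 genes measured by 150 probe sets, out of 19775 genes and 54675 probe sets. They were 13 Eph receptors, 8 ephrins, 20 semaphorins, 11 plexins and neuropilins, and 7 SLIT and ROBO genes.

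SCP2 is a subline of the human line MDA-MB-231 grown from a single cell, so all 4 arrays come from 1 clonal background. The groups were cells labelled as overexpressing DLC1 with TGF-beta, the same cells without it, vector control cells with TGF-beta, and vector control cells without it. DLC1 encodes a GTPase-activating protein, and TGF-beta is a cytokine stored in bone matrix. The dose and duration of TGF-beta, and whether the overexpressing cells were a pool or a clone, were not stated in any source used here. Each group was measured on 1 array, so no difference below has a replicate check and no p-value is given. Fewer cells expressing a gene and less RNA per cell cannot be told apart in such bulk samples.

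These families carry signals between touching or neighbouring cells and are best known for steering growing axons. Ephrins sit on the cell surface and bind Eph receptor tyrosine kinases on the opposing cell, with signalling in both directions. Semaphorins signal through plexins, the secreted class 3 members mostly with a neuropilin as co-receptor, and SLIT proteins are secreted ligands of ROBO receptors. All of them act on the actin cytoskeleton, and in carcinomas they are studied in cell repulsion, invasion and vessel growth.

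The targeted transcript was read first. The brightest DLC1 probe set read 3.64 in the array labelled DLC1 with TGF-beta, against 2.51 in the vector array with TGF-beta. Without TGF-beta it read 3.38 in the array labelled DLC1, against 1.77 in the vector array. The next brightest ran the other way, at 1.69 against 2.41 with TGF-beta and 1.44 against 1.79 without. A dim set also read lower in the arrays labelled DLC1, at 0.19 against 0.41 with TGF-beta and 0.18 against 0.26 without. The transcript therefore leaves the labels unsettled, and the arrays are called "labelled DLC1" throughout. The TGF-beta labels had a clearer readout: all 5 kept genes of a list of TGF-beta targets were at least 2-fold higher with TGF-beta in both backgrounds, with median log2 differences of 2.10 in the arrays labelled DLC1 and 2.30 in the vector arrays. That list was chosen with earlier results of these data known, so the count is not an independent check of the labels. The labelled cell type was checked against 8 genes of mesenchymal-like breast lines, all of which were kept. Among them vimentin (VIM) read 160.3 to 205.05, while SPARC read 0.29 to 0.72. Of the 8 luminal markers 6 were kept, while CDH1 and FOXA1 lay under the filter on every array. KRT18 read 56.83 to 65.09, KRT19 11.21 to 16.56, KRT8 6.25 to 8.06 and EPCAM 5.76 to 7.45. GATA3 read up to 4.59, and ESR1 0.39 to 0.46. Genes of both lists were thus kept, and these lists alone do not settle the cell type. The 7 endothelial and pericyte markers summed to 2.83 to 3.44 per array and the 5 measured leukocyte markers to 2.23 to 3.11, with CDH5, VWF, TEK, TIE1, PTPRC and CD3E under the filter throughout. The other 3 of each list were kept, with PECAM1 at 0.67 to 0.85, RGS5 at 0.79 to 1.32, DES at 0.43 to 0.51, CD14 at 1.08 to 1.67, LYZ at 0.17 to 0.45 and ITGAM at 0.48 to 0.57. Neural and glial markers summed to between 4.65 and 12.25, most of it from MBP, and 4 of 8 were kept. Besides MBP these were RBFOX3 at 0.37 to 0.41, SNAP25 at 0.38 to 0.55 and SOX10 at 0.58 to 0.71. MBP read 6.22 with TGF-beta and 9.93 without in the arrays labelled DLC1, and 2.43 with TGF-beta and 6.59 without in the vector arrays, and its part in the results below was not tested.

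Intensities are in arbitrary units on a linear scale. They can be compared between arrays for 1 probe set, and not between probe sets or genes. Each gene is given by its brightest probe set over the 4 arrays, and was kept if its highest value reached 0.38, the median of all values. Of the 59 members, 44 were kept: 8 Eph receptors, 7 ephrins, 12 semaphorins, 10 plexins and neuropilins, and all 7 SLIT and ROBO genes. On all 4 arrays 39 of them were at or above 0.38, and 5 had at least 1 array under it, namely EPHA6, EPHA7, EPHA10, ROBO2 and SLIT1. The 15 members that stayed under 0.38 on every array were EFNA2, EPHA1, EPHA3, EPHA5, EPHB1, EPHB6, PLXNB3, SEMA3B, SEMA3D, SEMA3E, SEMA3G, SEMA4A, SEMA4G, SEMA6A and SEMA6D. A difference of at least 1 on the log2 scale, 2-fold, was taken as large. Of the 44 kept members, 9 passed 2-fold in at least 1 of the comparisons.

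**Figure D1:**
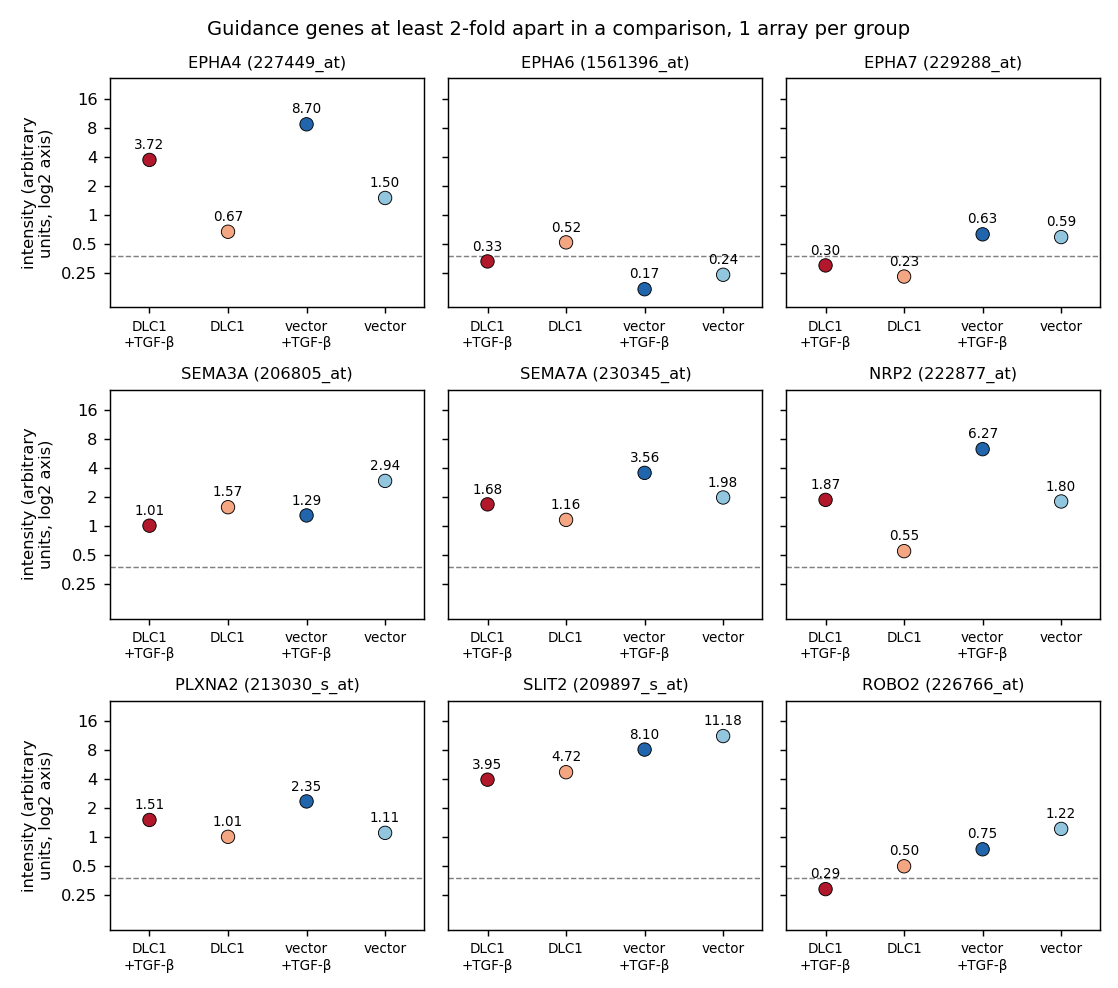
Intensity of the 9 guidance genes that passed 2-fold in a comparison, with 1 point for each array on a log2 axis in arbitrary units, and arrays ordered as labelled DLC1 with TGF-beta, labelled DLC1, vector with TGF-beta and vector. The dashed line is the filter at 0.38; EPHA4 and NRP2 stand highest in the vector array with TGF-beta, at 8.70 and 6.27, and SLIT2 is lower in both arrays labelled DLC1, at 3.95 and 4.72, than in the vector arrays, at 8.10 and 11.18.

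The TGF-beta comparison asks which guidance genes differ between treated and untreated cells in each background. EPHA4 and NRP2 passed 2-fold upward in both backgrounds, and PLXNA2 did so in the vector arrays. The ligand SEMA3A was the one member past 2-fold downward, in the vector arrays. In the vector arrays this makes 3 of 44 kept members higher, beside 1.21% of all 13136 kept genes, and 1 of 44 lower, beside 0.693%. In the arrays labelled DLC1 2 of 44 were higher, beside 0.792% of all kept genes, and 0 were lower, beside 0.107%. In both backgrounds at once 2 members were higher, beside 0.624% of all kept genes, and 0 were lower, beside 0.0609%. The median log2 difference over kept members was 0.03 in the arrays labelled DLC1 and 0.01 in the vector arrays, against -0.01 and -0.03 over all kept genes. The middle 90% of members ran from -0.61 to 0.80 in the arrays labelled DLC1 and from -0.50 to 1.05 in the vector arrays, against -0.34 to 0.38 and -0.47 to 0.45 over all kept genes. The 22 kept receptors had medians of 0.09 in the arrays labelled DLC1 and 0.08 in the vector arrays, and the 22 kept ligands of 0 and -0.11.

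EPHA4 encodes an Eph receptor that binds ephrins of both the A and the B class. In the arrays labelled DLC1 it read 3.72 with TGF-beta and 0.67 without, and in the vector arrays 8.70 with TGF-beta and 1.5 without. Both TGF-beta arrays were thus higher than both untreated ones. The differences were 5.55-fold in the arrays labelled DLC1 and 5.80-fold in the vector arrays, the 8th and 16th highest of 13136 kept genes. All 4 EPHA4 probe sets that passed the filter were at least 2-fold higher in both backgrounds, with log2 differences of 1.43 to 2.47 in the arrays labelled DLC1 and of 1.66 to 2.54 in the vector arrays.

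NRP2 encodes neuropilin-2, a co-receptor for class 3 semaphorins and for VEGF-C. Its brightest probe set read 1.87 with TGF-beta and 0.55 without in the arrays labelled DLC1, and 6.27 with TGF-beta and 1.80 without in the vector arrays. The TGF-beta differences were 3.40-fold in the arrays labelled DLC1 and 3.48-fold in the vector arrays. The treated array labelled DLC1 therefore read close to the untreated vector array. The 11 NRP2 probe sets parted in size. All 8 that passed the filter were higher with TGF-beta in both backgrounds, and 6 passed 2-fold in the vector arrays, but the brightest alone did so in the arrays labelled DLC1. There the other 7 gave log2 differences of 0.04 to 0.83, and 5 of them read at most 0.40 on both of those arrays. Sets at 1.27 and 0.72 in the treated vector array reached the filter on that array alone. A difference with TGF-beta in the vector arrays was thus built into their selection. With a gene taken as the mean of all its probe sets, also those under the filter, the NRP2 difference in the arrays labelled DLC1 was 0.50.

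**Figure D2:**
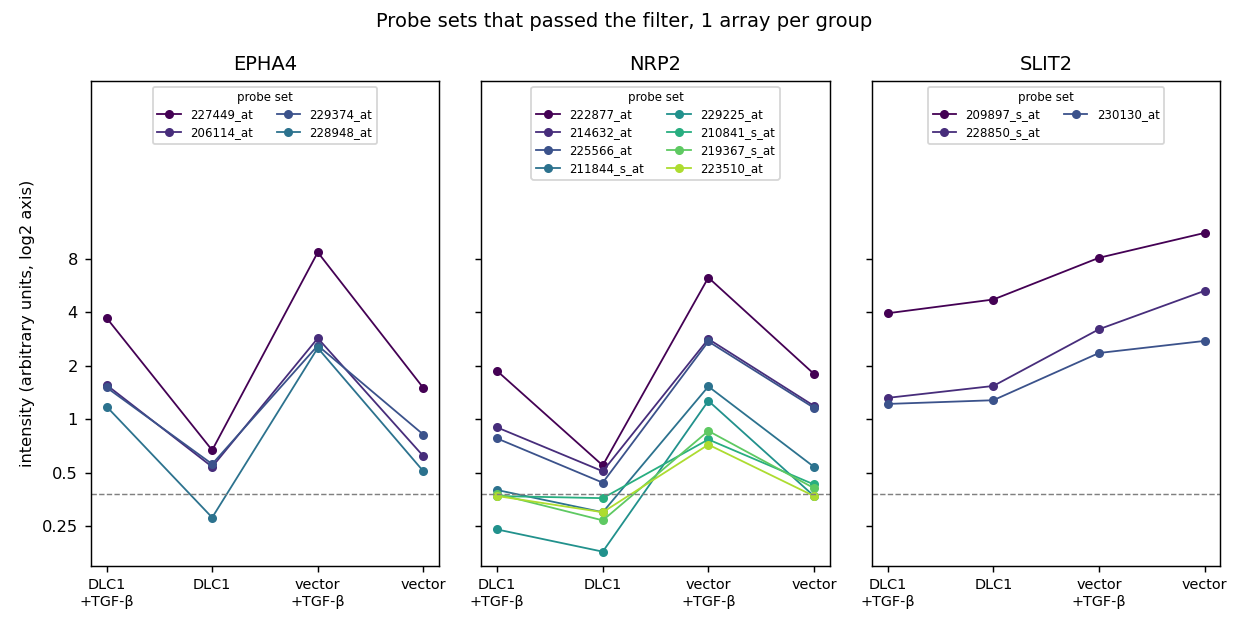
Intensity of every probe set of EPHA4 (4), NRP2 (8) and SLIT2 (3) that passed the filter, on a log2 axis in arbitrary units, with 1 line per probe set over the 4 arrays, arrays labelled DLC1 first, and the filter at 0.38 as a dashed line. Every EPHA4 and NRP2 line peaks in the vector array with TGF-beta, and every SLIT2 line is lower in the arrays labelled DLC1 than in the vector arrays. Some NRP2 sets reached the filter through vector arrays alone, so their peak is partly built into their selection.

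The sequence before the annotated start of EPHA4 and of NRP2 is shown because these are the members that passed 2-fold with TGF-beta in both backgrounds. It is the 250 bases upstream of the gene start in RefSeq on GRCh38.p14, printed 5′ to 3′ on the gene's own strand, at chr2:221574203-221574452 on the minus strand for EPHA4 and at chr2:205682251-205682500 on the plus strand for NRP2. The capitals mark CAGAC, the core of the CAGA box bound by SMAD proteins, read on either strand.
EPHA4: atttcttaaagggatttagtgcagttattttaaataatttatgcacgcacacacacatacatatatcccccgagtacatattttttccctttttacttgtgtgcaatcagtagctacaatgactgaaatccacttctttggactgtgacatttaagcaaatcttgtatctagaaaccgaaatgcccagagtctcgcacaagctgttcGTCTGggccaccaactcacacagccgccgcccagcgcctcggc
NRP2: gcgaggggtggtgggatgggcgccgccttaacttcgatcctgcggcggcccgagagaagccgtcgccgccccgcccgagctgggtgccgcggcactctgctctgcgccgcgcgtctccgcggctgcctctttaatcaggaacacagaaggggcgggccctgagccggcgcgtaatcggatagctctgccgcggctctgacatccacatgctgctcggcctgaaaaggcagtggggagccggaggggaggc

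EPHA4 held CAGAC once, as GTCTG on the printed strand beginning 43 bases before the start, and NRP2 held it nowhere in this window. The match is a description of letters and not a binding site. The windows also differ in base composition, with 43.2% G and C for EPHA4 and 70.0% for NRP2. CAGAC on either strand occurred in 37.8% of all 27305 promoters of the table and in 11 of the 39 kept members matched by gene identifier, which is 28.2%. EPHA10, EFNB3, NRP1, SEMA3A and SEMA6B were not matched. The palindromic SMAD element GTCTAGAC and the AP-1 site TGAGTCA, also searched on both strands, contain neither CAGAC nor its complement and were in 0.176% and 4.16% of all promoters and in 0 of the 39 members.

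No other Eph receptor passed 2-fold with TGF-beta. EPHA2, a receptor of A-class ephrins abundant in basal breast lines, read 22.24 with TGF-beta and 20.57 without in the arrays labelled DLC1, and 19.27 with TGF-beta and 19.61 without in the vector arrays. Its log2 differences were 0.11 and -0.03. EPHB4, the receptor of ephrin-B2, gave 0.17 in the arrays labelled DLC1 and -0.11 in the vector arrays, where its other set gave 0.25. EPHB3 gave 0.04 in each background. EPHA6 and EPHA7, both dim, gave -0.66 and 0.38 in the arrays labelled DLC1 and -0.50 and 0.09 in the vector arrays.

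No ephrin passed 2-fold with TGF-beta. EFNA1, the main ligand of EPHA2, gave 0.20 in the arrays labelled DLC1 and 0.33 in the vector arrays, and EFNA5 gave -0.17 and -0.18. EFNB2, a transmembrane ligand of EPHB4 and EPHA4, read 4.15 with TGF-beta and 4.44 without in the arrays labelled DLC1, and 4.97 with TGF-beta and 6.96 without in the vector arrays. Its differences were -0.10 in the arrays labelled DLC1 and -0.49 in the vector arrays. A dimmer EFNB2 set gave -0.57 and -0.42, so the sets do not agree on which background had the larger difference. EFNB3 gave 0 and -0.07.

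SEMA3A encodes a secreted semaphorin that acts through NRP1 and A-class plexins. It read 1.01 with TGF-beta and 1.57 without in the arrays labelled DLC1, and 1.29 with TGF-beta and 2.94 without in the vector arrays. Treated arrays were lower in both backgrounds, with log2 differences of -0.64 in the arrays labelled DLC1 and -1.19 in the vector arrays. A dimmer SEMA3A probe set was past 2-fold in the vector arrays at -1.51, with 0.21 with TGF-beta and 0.60 without. It reached the filter on the untreated vector array alone, so this difference was built into its selection. In the arrays labelled DLC1 it gave 0.26, between values of 0.24 and 0.20 that are under the filter.

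The remaining semaphorins differed less. SEMA3C, a secreted ligand of both neuropilins, gave 0.23 in the arrays labelled DLC1 and 0.52 in the vector arrays, and its dim second set gave -0.04 and 1.26. SEMA3F, a ligand of NRP2, gave 0 and -0.35. SEMA7A, a membrane-anchored semaphorin that binds PLXNC1 and integrin beta 1, read 1.68 with TGF-beta and 1.16 without in the arrays labelled DLC1, and 3.56 with TGF-beta and 1.98 without in the vector arrays. Its differences were 0.53 and 0.85, while its second set read 0.48 on all 4 arrays. SEMA4C, a ligand of PLXNB2, gave 0.18 and 0.20, and its second set gave -0.01 in the arrays labelled DLC1.

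Of the plexins, PLXNA2 and PLXND1 had the largest upward differences with TGF-beta. PLXNA2, a receptor of class 6 and, with neuropilins, class 3 semaphorins, read 1.51 with TGF-beta and 1.01 without in the arrays labelled DLC1, and 2.35 with TGF-beta and 1.11 without in the vector arrays. Its differences were 0.58 in the arrays labelled DLC1 and 1.08 in the vector arrays. The other passing set stayed inside 2-fold at 0.56 and 0.92. PLXND1, the receptor of SEMA3E, read 3.64 with TGF-beta and 2.70 without in the arrays labelled DLC1, and 4.61 with TGF-beta and 2.53 without in the vector arrays. This is a difference of 0.43 in the arrays labelled DLC1 and 0.87 in the vector arrays. Its second set passed 2-fold in the vector arrays at 1.30 and gave 0.67 in the others. PLXNA1 gave -0.46 and 0.06, and PLXNA3 gave 0.17 and 0.52. PLXNC1, the receptor of SEMA7A, gave -0.39 and -0.35, and PLXNB2, the receptor of SEMA4C, gave 0.09 and 0.19.

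NRP1, the other neuropilin and a co-receptor for SEMA3A and VEGF-A, did not share the difference of NRP2. It read 26.46 with TGF-beta and 24.73 without in the arrays labelled DLC1, and 20.82 with TGF-beta and 24.74 without in the vector arrays. The differences were 0.10 and -0.25, and a second set gave -0.09 in the arrays labelled DLC1.

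Within the SLIT and ROBO group no gene passed 2-fold with TGF-beta. ROBO4, known as the endothelial member of the family, was the highest upward, with 10.49 with TGF-beta and 5.87 without in the arrays labelled DLC1, and 9.67 with TGF-beta and 6.24 without in the vector arrays. Its differences were 0.84 and 0.63, and its second set gave 0.56 and 0.37. ROBO2 was the lowest, at -0.79 in the arrays labelled DLC1 and -0.70 in the vector arrays. SLIT2 gave -0.26 and -0.46, SLIT3 gave 0.19 and 0.26, and ROBO1 gave -0.19 and 0.14. The 7 endothelial and pericyte markers, 3 of them kept, summed to 3.12 with TGF-beta and 3.44 without in the arrays labelled DLC1, and to 2.97 with TGF-beta and 2.83 without in the vector arrays, and their part in the ROBO4 values was not tested.

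**Figure D3:**
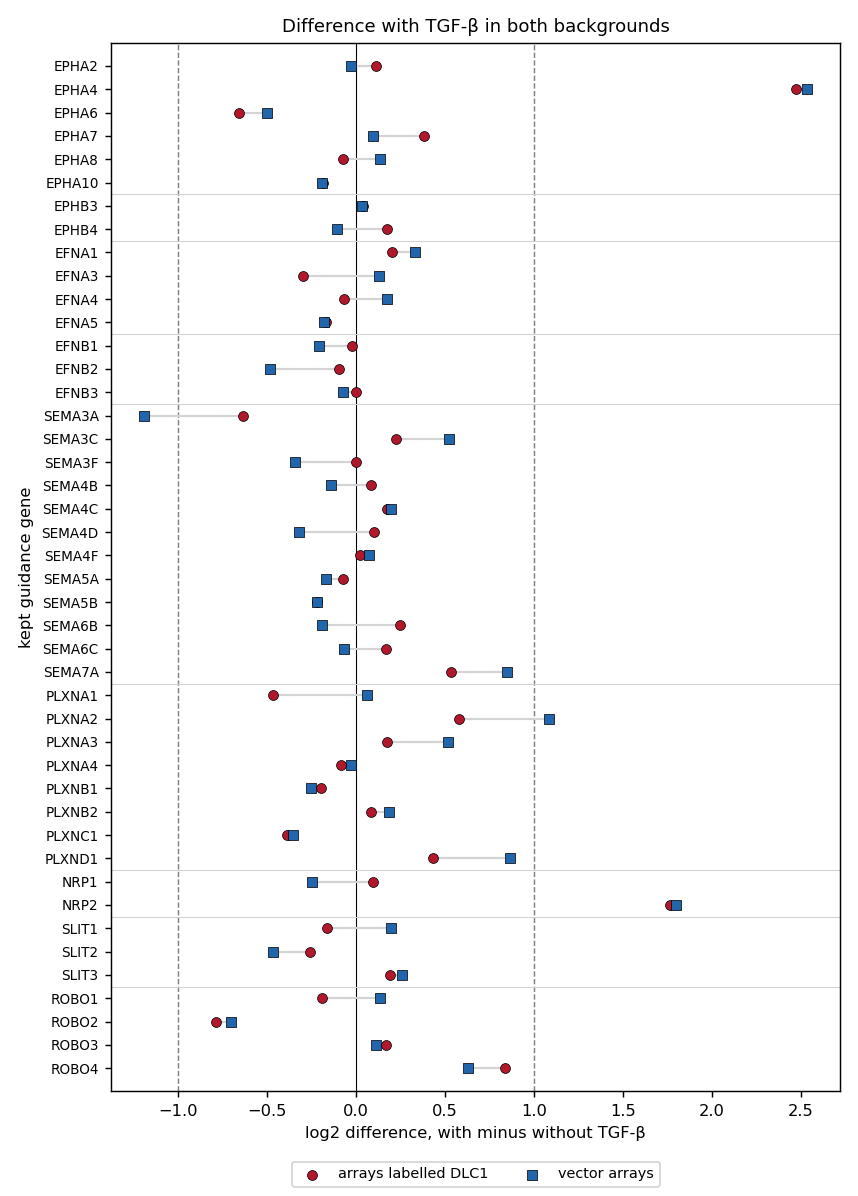
Log2 difference with minus without TGF-beta for each of the 44 kept guidance genes, with circles for the arrays labelled DLC1, squares for the vector arrays, and dashed lines at 2-fold. EPHA4, at 2.47 and 2.54, and NRP2, at 1.77 and 1.80, lie past 2-fold in both backgrounds, PLXNA2 at 1.08 and SEMA3A at -1.19 do so in the vector arrays, and the other genes lie between the lines.

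The size of the TGF-beta difference was then set against the background, by subtracting the log2 difference of the vector arrays from that of the arrays labelled DLC1. No kept member passed 2-fold, beside 0.19% of all kept genes higher and 0.175% lower. The members ran from -0.53 for PLXNA1 to 0.55 for SEMA3A. For EPHA4 and NRP2 it was -0.06 and -0.03, so the TGF-beta differences of the sets that stand for these receptors were nearly equal on the log2 scale in both backgrounds. All 4 passing EPHA4 sets lay below 0, from -0.68 to -0.06, and the set that stands for the gene was the nearest to 0. The other 7 passing NRP2 sets lay between -1.36 and -0.41, and the mean of all its probe sets gave -0.61. The set at -1.36 reached the filter on the treated vector array alone. Of the 8 kept plexins, 7 were below 0, beside 6043 of all kept genes, with PLXNA2 at -0.50 and PLXND1 at -0.43. PLXNC1 counted among them at -0.04, but its second passing set gave 0.54. Their medians with TGF-beta were 0 in the arrays labelled DLC1 and 0.12 in the vector arrays. As a sign of RNA quality, the log2 gap between 3' and 5' control probe sets of beta-actin was 3.03 with TGF-beta and 3.11 without in the arrays labelled DLC1, and 2.83 with TGF-beta and 3.26 without in the vector arrays. The GAPDH gap varied less, at 0.39 with TGF-beta and 0.35 without in the arrays labelled DLC1. In the vector arrays it was 0.38 with TGF-beta and 0.39 without. The part of these gaps in these differences was not tested.

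Setting both arrays labelled DLC1 against their vector counterparts asks which guidance genes differ between cells labelled as overexpressing DLC1 and vector control cells. Guidance genes past 2-fold were mostly lower. EPHA4, EPHA7, NRP2, SLIT2 and ROBO2 were lower in both TGF-beta states, and SEMA7A was lower with TGF-beta. EPHA6 was the one member past 2-fold upward, without TGF-beta. Among the 44 kept members 6 were lower with TGF-beta, beside 1.64% of all kept genes, and 5 without, beside 2.34%. Upward there were 0 with TGF-beta, beside 1.46% of all kept genes, and 1 without, beside 1.63%. In both states 5 members were lower, beside 1.13%, and 0 were higher, beside 0.868%. The lower counts include EPHA7, kept through its vector values alone. The upward call is EPHA6, kept through the untreated array labelled DLC1 alone. The median log2 difference of kept members was -0.11 with TGF-beta and -0.13 without, against -0.02 and -0.03 over all kept genes.

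NRP2 had the largest such difference of the members. As given above, it read 1.87 in the array labelled DLC1 against 6.27 in the vector array with TGF-beta, and 0.55 against 1.80 without. It was 3.35-fold lower with TGF-beta and 3.27-fold lower without, the 25th and 38th lowest of 13136 kept genes. All 8 passing probe sets were lower in both states. With TGF-beta 7 of them passed 2-fold and the dimmest stayed just inside at -0.96. Without TGF-beta 4 passed, and the other 4 gave -0.85, -0.26, -0.60 and -0.30. Some of the 8 sets reached the filter through vector arrays alone. With and without TGF-beta these read 0.24 and 0.18, 0.37 and 0.36, and 0.37 and 0.30 in the arrays labelled DLC1. For those sets a difference was built into their selection.

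EPHA4 was 2.34-fold lower in the arrays labelled DLC1 with TGF-beta and 2.24-fold lower without. All 4 passing probe sets were lower, but fewer passed 2-fold. With TGF-beta 2 of them stayed inside at -0.87 and -0.78. Without it 3 stayed inside, at -0.20, -0.55 and -0.87. As the mean of all its probe sets, also the set under the filter, EPHA4 gave -0.82 with TGF-beta and -0.55 without.

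EPHA4 and NRP2 were thus higher with TGF-beta in both backgrounds and lower in the arrays labelled DLC1 in both states, each past 2-fold. Of all 13136 kept genes, 17 had this pattern, which is 0.129%. The TGF-beta and the DLC1 differences use the same 4 arrays and are not independent of each other.

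The dim receptors EPHA7 and EPHA6 went opposite ways. EPHA7, a receptor of A-class ephrins, read 0.30 in the array labelled DLC1 against 0.63 in the vector array with TGF-beta, and 0.23 against 0.59 without. EPHA7 was kept through its vector values alone, so a difference was built into its selection. EPHA6 read 0.33 in the array labelled DLC1 against 0.17 in the vector array with TGF-beta, and 0.52 against 0.24 without. It was kept through 1 array, the untreated one labelled DLC1. The log2 differences were -1.07 and -1.36 for EPHA7 and 0.96 and 1.12 for EPHA6, and their sizes are uncertain because they rest on values under the filter. EPHA2 gave 0.21 with TGF-beta and 0.07 without, EPHB4 gave 0.02 and -0.25 with -0.25 for its other set with TGF-beta, and EPHB3 gave -0.13 in each state.

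Of the ephrins, EFNA1 stood out upward without passing 2-fold. It read 4.78 in the array labelled DLC1 against 2.86 in the vector array with TGF-beta, and 4.16 against 2.27 without. Both arrays labelled DLC1 lay above both vector arrays, by 0.74 on the log2 scale with TGF-beta and 0.87 without. It has 1 probe set. EFNB2 gave -0.26 with TGF-beta and -0.65 without in its brighter set, and -0.57 and -0.42 in its dimmer one. EFNA5 gave 0.16 and 0.14, and EFNA4 gave -0.48 and -0.23. EFNB3 gave -0.02 and -0.09, and its second set 0.03 with TGF-beta.

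Semaphorins lay mostly below 0 without TGF-beta, 10 of 12 kept members, with a median of -0.28, beside 7023 of all 13136 kept genes. SEMA6B counted among them at -0.33, but its second passing set gave 0.28. The second sets of SEMA3C and SEMA4C also lay above 0 there. With TGF-beta 7 of 12 lay below 0, with a median of -0.04, beside 6833 of all kept genes. SEMA7A was 2.12-fold lower with TGF-beta, at 1.68 against 3.56, and gave -0.77 without, at 1.16 against 1.98. Its second set gave 0 in both states. SEMA3A gave -0.35 with TGF-beta and -0.91 without, and its dim set gave 0.19 and -1.58. That dim set reached the filter on the untreated vector array alone, so the second of its differences was built into its selection. SEMA3C read 12.52 in the array labelled DLC1 against 22.60 in the vector array with TGF-beta, and 10.70 against 15.75 without. These are differences of -0.85 and -0.56, and its dim set gave -1.22 and 0.07. SEMA3F gave 0.41 and 0.06, and SEMA4C gave -0.04 and -0.02, with 0.02 and 0.07 for its second set.

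No plexin passed 2-fold between the backgrounds. PLXNA2 gave -0.64 with TGF-beta and -0.14 without, and PLXND1 gave -0.34 and 0.09. PLXNA4, a co-receptor of NRP1 for SEMA3A, gave 0.48 and 0.54, and PLXNA1 gave -0.28 and 0.24. PLXNC1 read 0.87 in the array labelled DLC1 against 1.19 in the vector array with TGF-beta, and 1.14 against 1.52 without, differences of -0.45 and -0.42, while its second passing set gave 0.35 with TGF-beta and -0.19 without. NRP1 gave 0.35 with TGF-beta and 0.00 without in its brightest set, and a second set gave 0.27 without. Its dimmest passing set was past 2-fold with TGF-beta, at 1.61, with 0.49 against 0.16. That set reached the filter on the treated array labelled DLC1 alone, so a difference was built into its selection.

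SLIT2 and one of its receptors, ROBO2, were both lower in the arrays labelled DLC1. SLIT2 encodes a secreted repellent and is often silenced in carcinomas. It read 3.95 in the array labelled DLC1 against 8.10 in the vector array with TGF-beta, and 4.72 against 11.18 without. Both arrays labelled DLC1 lay below both vector arrays, and the differences were 2.05-fold and 2.37-fold. All 3 SLIT2 probe sets were lower in both states, from -1.11 to -1.78 without TGF-beta. With TGF-beta the dimmest stayed just inside 2-fold at -0.95.

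ROBO2, a receptor of SLIT proteins, read 0.29 in the array labelled DLC1 against 0.75 in the vector array with TGF-beta, and 0.50 against 1.22 without. It was 2.59-fold lower with TGF-beta and 2.44-fold lower without, and the first of these rests on a value under the filter. ROBO1, another SLIT receptor, read 9.85 against 13.09 with TGF-beta and 11.23 against 11.91 without, differences of -0.41 and -0.08. SLIT3 gave 0.02 and 0.08, ROBO3 gave -0.11 and -0.17, and ROBO4 gave 0.12 and -0.09, with 0.11 without TGF-beta for its second set. Within this group the differences past 2-fold were thus those of SLIT2 and ROBO2.

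**Figure D4:**
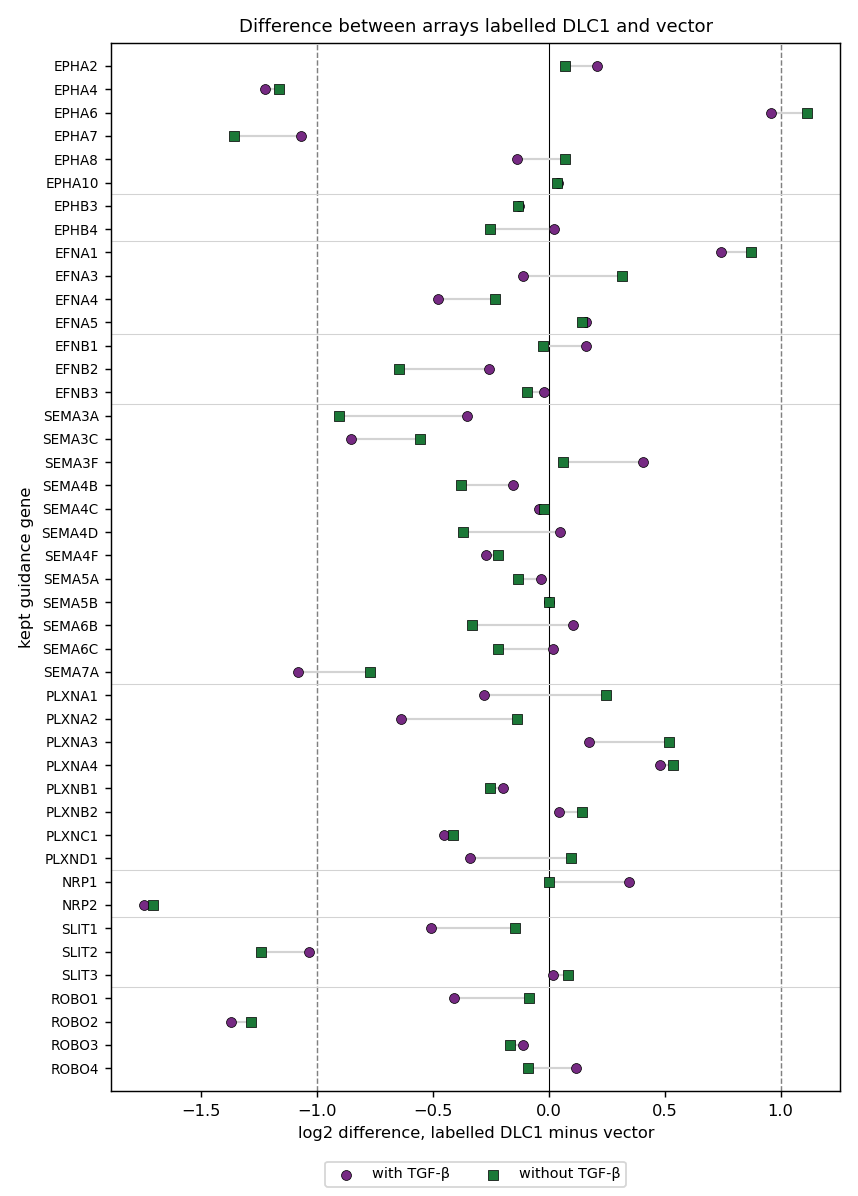
Log2 difference of the arrays labelled DLC1 minus the vector arrays for each of the 44 kept guidance genes, with circles for the comparison with TGF-beta, squares for that without, and dashed lines at 2-fold. NRP2 at -1.75 and -1.71, ROBO2, EPHA4, EPHA7 and SLIT2 lie past 2-fold downward in both states, and EPHA6 lies past it upward without TGF-beta, at 1.12.

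Several guidance genes are long, and the median of long genes was lower than that of all kept genes in the arrays labelled DLC1. The longest 10% of kept genes, of 153 kb or more, had median log2 differences of -0.09 with TGF-beta and -0.13 without, and 3.73% and 4.8% of them were at least 2-fold lower. Of the 44 kept members, 16 belong to this longest 10%, which is 36.4%. Of the 6 members lower by 2-fold in either state, 4 do, namely EPHA4 with 156.2 kb, EPHA7 with 179.5 kb, SLIT2 with 368.7 kb and ROBO2 with 1743.3 kb. NRP2 has 115.6 kb and SEMA7A 24.7 kb. The part of gene length in these differences was not tested.

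Other guidance genes were read from 3 lists. Of 36 cytoplasmic effectors, adaptors, kinases and GTPase regulators that act below these receptors, 32 were kept. ABL1, a tyrosine kinase that acts below ROBO and Eph receptors, passed 2-fold with TGF-beta in the vector arrays, at 10.50 with TGF-beta and 4.90 without, a difference of 1.10. In the arrays labelled DLC1 it read 6.42 with TGF-beta and 4.06 without, a difference of 0.66. MICAL2, of a family of actin-oxidising enzymes that act below plexins, gave 0.84 in the arrays labelled DLC1 and 0.86 in the vector arrays. SRGAP2, of the SLIT-ROBO GTPase-activating proteins, was past 2-fold between the untreated arrays, at 1.18, but its other set gave 0.71 and with TGF-beta the differences were 0.18 and -0.04. The set that stands for SRGAP2 read 0.42 against 0.37 with TGF-beta and 0.70 against 0.31 without. It was kept through the arrays labelled DLC1 alone, so a difference was built into its selection. The list's median differences with TGF-beta were 0.12 in the arrays labelled DLC1 and 0.02 in the vector arrays, and between the backgrounds -0.01 with TGF-beta and -0.04 without.

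Of 20 netrin, UNC5, RGM, L1-family and FLRT genes, 12 were kept. FLRT2, a membrane ligand of UNC5 receptors, read 12.99 with TGF-beta and 6.99 without in the arrays labelled DLC1, and 19.07 with TGF-beta and 7.81 without in the vector arrays. It passed 2-fold in the vector arrays, at 1.29, and gave 0.89 in the arrays labelled DLC1. A second set passed in both, at 1.02 and 1.61, and the remaining one gave 0.66 and 1.07. The second set was also lower between the backgrounds with TGF-beta, at -1.34.

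NTN4, a netrin, was higher in the arrays labelled DLC1, at 6.65 against 2.94 with TGF-beta and 7.53 against 4.27 without, differences of 1.18 and 0.82. The adhesion genes NRCAM and FLRT3 were lower in both states, at -1.02 and -1.23 with TGF-beta and at -1.06 and -1.62 without, and for each of them the array labelled DLC1 without TGF-beta lay under the filter. FLRT3 read 0.20 and 0.15 in the arrays labelled DLC1, against 0.47 and 0.46 in the vector arrays, so it was kept through the vector values alone and a difference was built into its selection. Of 13 sheddases, co-receptors and related genes, 11 were kept. KDR, a VEGF receptor that works with neuropilins, was lower in the array labelled DLC1 with TGF-beta, at 0.47 against 0.96, a difference of -1.03, and gave -0.69 without. The other 10 stayed within 2-fold in all comparisons. MET, a kinase that associates with B-class plexins, gave -0.34 with TGF-beta and -0.16 without, and ADAM10, which cleaves ephrins, gave -0.31 and -0.37.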

How the data were processed

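The authors deposited 1 linear intensity for each of 54675 probe sets and array, to 2 decimals, from 0.05 to 265.58. Per the submitters' processing notes these are RMA values; no version, settings or scaling divisor are given. The median intensity was 0.38 to 0.39 on each of the 4 arrays, and their number limits the precision of every value. The platform annotation supplied gene names: 41097 probe sets had exactly 1 symbol, 1801 had several, and 11777 are unnamed here. The 59 member symbols all matched the current RefSeq symbol.

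Log2 was taken with no pseudocount, and differences were computed per gene in Python 3.11.15 using pandas 2.3.3 and numpy 2.4.6. Only the differences and the 2-fold calls were tested on simulated data, and not the choice of probe sets or the filter. The brightest probe set on average stood for a gene, and the filter described above left 13136 genes. Named were members past 2-fold in any comparison and the brightest 2 of each family, with other passing probe sets where their sign or side of 2-fold differed. Of the other lists, genes past 2-fold were named. EFNA4, PLXNA3, PLXNA4, PLXNB2, PLXNC1, ROBO3, MICAL2, MET and ADAM10 were added after their values were seen. The members and lists were chosen with earlier results of these data known. Alternatives were the mean of probe sets, no filter, a stricter filter, a pseudocount, centring on housekeeping genes, and quantile normalization. The mean took in all probe sets of a gene, also those under the filter.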

Additional observations from a re-analysis of the deposited data

How the results depend on the processing

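No paired analysis was possible because each group has 1 array and the labels carry no replicate numbers. Of 60 repeats of the member counts, 23 were 0 under both settings and show nothing about stability. Of the other 37, 26 stayed within 1.5 times the value given and 11 did not. None of the 9 genes past 2-fold changed direction on a call that could be recomputed. As the mean of their probe sets EPHA6, EPHA7 and ROBO2 fell under the filter and gave no value, and under the stricter filter EPHA6 gave none in 3 of 5 comparisons. Without a filter, with the stricter filter and with quantile normalization no count moved by more than 1.5 times. With a gene as the mean of its probe sets, members lower in the arrays labelled DLC1 numbered 3 with TGF-beta and 1 without, those higher without TGF-beta 0, and 1 was higher with TGF-beta where DLC1 was the label. With the median added before log2, members lower in the arrays labelled DLC1 numbered 2 with TGF-beta and 2 without, those higher without TGF-beta 0, and those lower with TGF-beta in the vector arrays 0. Centring on housekeeping genes moved the median of all genes upward, in the TGF-beta difference by 0.22 for the arrays labelled DLC1 and 0.14 for the vector arrays, and between the backgrounds by 0.23 with TGF-beta and 0.15 without. Under it members lower in the arrays labelled DLC1 with TGF-beta numbered 2, NRP2 and ROBO2, and those higher numbered 1 with TGF-beta and 2 without. It also turned the balance over all kept genes, to 401 higher and 114 lower with TGF-beta, against 192 and 216 as given, and to 322 higher and 202 lower without, against 214 and 307. For TGF-beta it gave 186 higher and 6 lower under the DLC1 label, against 104 and 14, and 206 higher and 59 lower in the vector arrays, against 159 and 91. The centring level of an array was the median of 13 housekeeping genes, and so the value of 1 gene. In the arrays labelled DLC1 it was TFRC, at 62.15 with TGF-beta and 72.56 without. In the vector arrays it was TFRC at 72.99 with TGF-beta and ACTB at 80.42 without. The shifts restate the differences between these values with the sign turned. The median housekeeping differences were -0.025 (labelled DLC1) and 0.034 (vector) for TGF-beta, and between the backgrounds -0.104 with TGF-beta and -0.074 without. Under all 6 alternatives EPHA4 stayed past 2-fold upward with TGF-beta in both backgrounds, as did SLIT2 downward between the backgrounds without TGF-beta and NRP2 with it. The settings without a filter and with the stricter filter change only which genes are kept. For these genes they could not have altered the outcome. Quantile normalization moved the median of all genes by at most 0.013 in any comparison, so it changed these data little and is a weak check. Probe sets near the filter have coarse ratios, since values carry 2 decimals.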

Other observations

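Of the 76 member probe sets that passed the filter, 5 differed by 2-fold or more in the TGF-beta difference between the backgrounds, although no gene did by the probe set that stands for it. The difference was 1.78 for a SEMA3A set, 1.05 for an NRP1 set, -1.30 for a SEMA3C set, and -1.36 and -1.09 for a pair of NRP2 sets. The SEMA3C set read 0.39 with TGF-beta and 0.40 without in the arrays labelled DLC1, and 0.91 with TGF-beta and 0.38 without in the vector arrays. The set of SEMA3A was above the filter on the untreated vector array alone, at 0.60, and that of NRP1 on the treated array labelled DLC1 alone, at 0.49. The NRP2 set at -1.36 was above it on the treated vector array alone, at 1.27. Over the 21 kept members with more than 1 passing probe set, all passing sets had the same sign for 13 members in the TGF-beta difference of the arrays labelled DLC1 and for 17 in that of the vector arrays, and for 15 members in the difference between the backgrounds in each TGF-beta state.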
